A study of Mus musculus with 35 samples.

Results

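Dorsal brain (dB) was set against ventral brain (vB) in mouse embryos at embryonic day 11.5. The 6 libraries titled as CD1 dNT and the 6 titled as CD1 vNT were used, 12 of the 35 libraries of the series, and the other 23 came from facial prominences and limb. The study asked how expression, in particular of genes of the primary cilium, differs between embryonic tissues. All embryos were wild-type mice of the outbred CD1 strain, untreated, and each library held tissue pooled from several embryos, with 6 independent replicates per tissue in the study's methods. The sample titles abbreviate the tissues as dNT and vNT, taken here as the dorsal brain (dB) and ventral brain (vB) of the study. According to the study's text, the tissue came from forebrain and midbrain. The boundary between the dorsal and the ventral samples is not stated there or in the labels. Expression was measured by RNA sequencing as FPKM, fragments scaled by transcript length and by library size, summed over the transcripts of each gene.

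The neural tube is patterned from its poles. The notochord and floor plate secrete Sonic hedgehog, which induces ventral fates, while the roof plate and the cortical hem secrete Bmp and Wnt proteins, which pattern the dorsal side. In the forebrain the dorsal telencephalon (pallium) forms the cortex and the choroid plexus, the ventral telencephalon (subpallium) forms the basal ganglia and GABAergic neurons, and the basal diencephalon forms the hypothalamus. Hedgehog signals are processed at the primary cilium, on which receptors and transducers of the pathway gather.

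Both tissues carried the profile of anterior neural tissue. The mean of the 15 neural progenitor genes, as log2(FPKM + 1), was 5.38 to 5.94 in dB libraries and 4.83 to 6.00 in vB libraries, against 2.08 to 4.20 in facial libraries. Hoxb2, a hindbrain gene, had at most 0.131 FPKM in dB and 0.13 FPKM in vB, whereas Otx2, a forebrain and midbrain factor, had 51.3 to 105 FPKM in dB and 28.7 to 68.2 FPKM in vB. The vB libraries were less alike than the dB libraries: the Pearson correlation over the genes tested was 0.927 to 0.977 between dB libraries and 0.849 to 0.974 between vB libraries. The SD of log2(FPKM + 1) was larger in vB for 11008 of 13131 genes (83.8%). The coverage that went with 1 FPKM was 2.87 to 5.51, and 11894 to 12955 genes reached 1 FPKM per library. The libraries were technically uneven. Transcripts under 200 bases held 28.6% of the FPKM in dB 1 and 37.0% in vB 1, against 0.653% to 9.28% in the others. The summed FPKM ran from 444986 in vB 2 to 824967 in vB 1.

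The vB libraries were uneven in their mesenchyme markers. The mean of 19 mesenchyme markers was 3.04 to 3.88 in dB libraries, but in vB it was 3.78, 3.28 and 4.22 in replicates 1, 4 and 5, against 1.95, 1.30 and 0.58 in replicates 2, 3 and 6. Replicates 1 and 4 of vB thus lay in the dB range, replicate 5 above it, and replicates 2, 3 and 6 below it. Facial libraries, rich in mesenchyme, had 4.57 to 5.45. Lhx2, a LIM homeodomain factor of the forebrain, was at 59.6 to 187 FPKM in dB, where replicate 4 was lowest, and in vB it was at 17.6 FPKM in replicate 4 and at 58.6 to 99.0 FPKM in the others. In bulk tissue, fewer cells of a type and less RNA per cell cannot be told apart.

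A small part of the genes tested was called. Genes were called at a Benjamini-Hochberg adjusted p under 0.05 in limma and a change of at least 2-fold on the log2(FPKM + 1) scale. Signed values given in parentheses after a gene are its log2 fold change, dB minus vB, with the SE where shown. Of 13131 genes tested, 67 (0.51%) were higher in dB and 20 (0.152%) were higher in vB, 87 in all (0.663%). An unadjusted p under 0.05 in limma was reached by 1234 (9.4%), the share against which such counts in the lists below are to be read. The libraries of dB and vB did not overlap for 57 of the 67 and 14 of the 20, whereas over all genes tested all dB libraries lay above all vB libraries for 0.96% and below them for 0.373%. Libraries with the same replicate number in dB and vB deviated together. With the replicate number as a block the counts were 96 (0.731%) and 54 (0.411%), 150 in all (1.14%), among them 65 of the 67 and 19 of the 20. Of the genes called with the block and not without it, dB was higher in all 6 pairs for 31 of 31, and vB was higher in all 6 pairs for 31 of 35. The block itself favours genes whose pairs agree, so these counts are not separate support for the calls or the pairing. Without vB 4 the counts were 96 and 70, and without vB 5 they were 116 and 22. In replicates 4 to 6 alone no gene was called higher in dB and 2 were called higher in vB. These were Snora21, a small nucleolar RNA, and AF357374, neither among the 20. All 87 called genes kept their sign there, 72 of them by at least 2-fold and 79 at an unadjusted p under 0.05. The 87 were called from all 12 libraries, these replicates among them, so that agreement is partly built in.

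**Figure D1:**
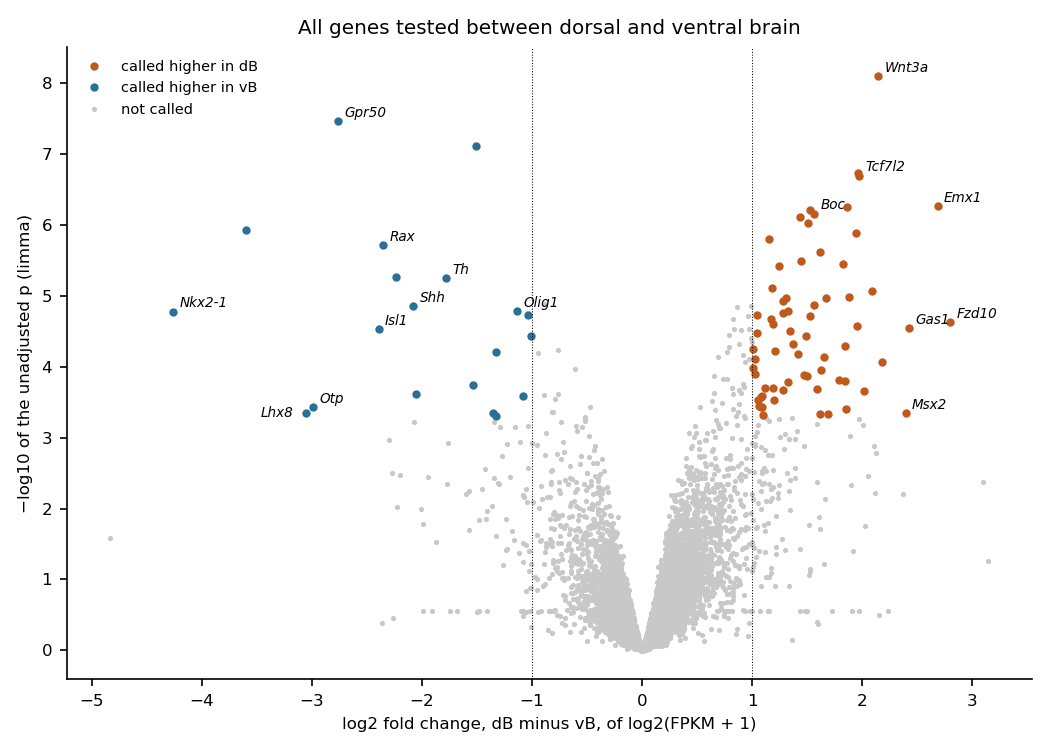
Fold change against p for the genes tested. The x axis is the log2 fold change (dB minus vB) and the y axis is limma's unadjusted p on a −log10 scale, with one point per gene, called genes coloured (orange higher in dB, blue higher in vB, grey not called) and dotted lines at 2-fold; 67 called genes lie on the dB side and 20 on the vB side, and among called genes Nkx2-1 lies farthest out at −4.26.

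Landmarks of the hypothalamus and basal diencephalon, where called, were higher in vB. Of 16 factors tested, 6 were called higher in vB and 0 higher in dB, with a median log2 fold change of −1.30, beside 0.05 over all genes tested (14 of the 16 had an unadjusted p under 0.05, and with the replicate block 9 were called higher in vB and again 0 higher in dB). Nkx2-1, the homeodomain factor of the hypothalamus and medial ganglionic eminence, had 0.429, 2.03 and 5.13 FPKM (lowest, median, highest) in dB and 6.93, 95.0 and 102 FPKM in vB. The groups did not overlap, and 4 vB libraries lay at 93.8 FPKM or more, with 39.4 FPKM in vB 5 and 6.93 FPKM in vB 4. Its log2 fold change was −4.26 (SE 0.64, adjusted p = 0.00628), and −4.82 without vB 4 (adjusted p = 0.000113, with 0.000113 to 0.0232 over the 12 fits that each left out 1 library).

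Rax, a factor of the hypothalamus and retina, had 0.113, 0.208 and 0.521 FPKM in dB against 2.74, 4.64 and 14.6 FPKM in vB, with no overlap and vB 1 highest (−2.35, SE 0.29, adjusted p = 0.0017). Nkx2-4, a close relative of Nkx2-1, had at most 0.668 FPKM in dB and at least 1.46 FPKM in vB (−2.24, SE 0.30, adjusted p = 0.0035). Otp and Sim1 specify neuroendocrine neurons of the hypothalamus. Sim1 did not overlap between the groups, at 0.208 to 1.04 FPKM in dB and 1.51 to 5.10 FPKM in vB (−1.33). Otp had 0.147, 0.529 and 2.02 FPKM in dB against 0.619, 18.4 and 41.7 FPKM in vB, where vB 4 lay within the dB range. Its change of −2.99 (adjusted p = 0.0416) was called in the 12 fits that each left out 1 library only in the one without vB 4, with adjusted p between 0.000113 and 0.124. With the mean of the mesenchyme markers as a covariate Otp was not called (−2.54, adjusted p = 0.164).

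Genes outside the lists that were higher in vB also included Gpr50, an orphan receptor related to the melatonin receptors and known from the hypothalamus. It had 0.0771, 0.192 and 0.230 FPKM in dB and 3.85, 6.54 and 15.9 FPKM in vB, and the groups were far apart (log2 fold change −2.76, SE 0.24, adjusted p = 0.000224). Asb4, a SOCS box protein expressed in hypothalamic nuclei, had 5.21 to 7.75 FPKM in dB and 16.0 to 26.8 FPKM in vB, with a tight spread on both sides (−1.51, SE 0.14, adjusted p = 0.000341). Neurog3, a proneural factor, was at or below 0.0835 FPKM in dB and between 0.534 and 1.83 FPKM in vB (−1.01). The log2 fold change of Dlk1, a Notch-related imprinted gene, was −2.05 and that of Irs4, an insulin receptor substrate, −1.33. Of the 12 fits Dlk1 was called only without vB 4 or without vB 5, and Irs4 only without vB 4, with adjusted p from 0.000113 to 0.096 and from 0.00404 to 0.144. Neurog3 lost its call in 6 of the 12 fits (without dB 2, dB 5, dB 6, vB 1, vB 2 or vB 3, adjusted p from 0.00355 to 0.0312). With the mesenchyme covariate none of the 3 was called, at −2.02 for Dlk1 (adjusted p = 0.104), −1.35 for Irs4 (adjusted p = 0.118) and −0.94 for Neurog3, which then lay under 2-fold.

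**Figure D2:**
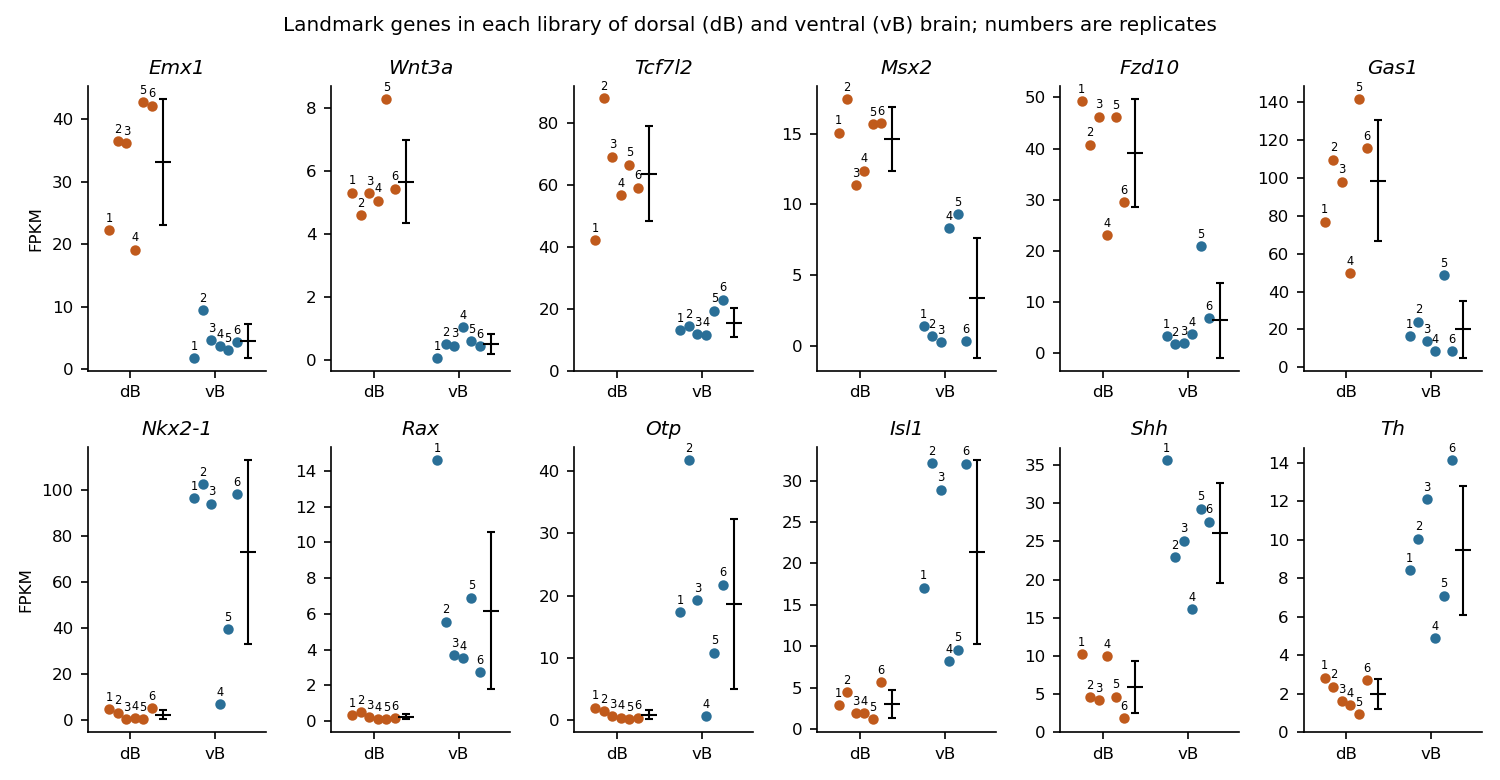
FPKM of 12 genes in each library. Each panel is one gene with FPKM on the y axis, dB replicates left of vB replicates as points, and the mean ± SD of each tissue beside them; Emx1, Wnt3a, Tcf7l2, Msx2, Fzd10 and Gas1 lie higher in dB, and Nkx2-1, Rax, Otp, Isl1, Shh and Th higher in vB, with vB 4 low for Nkx2-1 (6.93 FPKM) and Otp (0.619 FPKM).

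Nkx2-1 had 2 called neighbours on chromosome 12 (mm10). The long noncoding RNA E030019B13Rik, which RefSeq names Sfta3-ps and also Nanci, ends 2.515 kb from Nkx2-1. It had at most 1.12 FPKM in dB and 4.38 to 27.7 FPKM in vB, and as for Nkx2-1 the lowest vB values were those of vB 4 and vB 5 (log2 fold change −3.60, SE 0.42, adjusted p = 0.0013). Mbip, an inhibitor of a MAP kinase kinase kinase, lies 144.5 kb beyond it and had 11.1 to 17.0 FPKM in dB and 18.5 to 34.3 FPKM in vB (−1.04, SE 0.16, adjusted p = 0.00634). Mbip was not called in 3 of the 12 fits that left out 1 library, those without vB 1, vB 3 or vB 6, and its adjusted p ranged from 0.00169 to 0.0251 over the 12, and with the mesenchyme covariate its change was −0.88, under 2-fold. On the other side, Nkx2-9 averaged 1.71 ± 1.61 FPKM in dB and 3.06 ± 2.33 FPKM in vB (SD, n = 6 each), with an adjusted p of 0.769. Of the 87 called genes, 10 (11.5%) lay within 200 kb of another called gene, beside 1.84% of all genes tested that lay as near to a called gene. They made 6 neighbouring pairs, each with both members changed in 1 direction. The others were Wnt3a with Wnt9a (16.2 kb, chromosome 11), Zic5 with the noncoding 2610035F20Rik (4.719 kb) and that gene with Zic2 (0.185 kb), both on chromosome 14, and Rbm20 with Adra2a (178.1 kb, chromosome 19). Of these genes, Adra2a lost its call in 9 of the 12 fits (it was called without dB 4, vB 2 or vB 5, adjusted p from 0.0123 to 0.124) and 2610035F20Rik in 8 (called without dB 1, dB 4, vB 3 or vB 4, adjusted p from 0.00559 to 0.0749). Rbm20 lost its call in 5 (without dB 2, dB 3, dB 5, dB 6 or vB 1, adjusted p from 0.00294 to 0.0678). The sources do not say whether strand was used, so reads of genes that overlap cannot be told apart.

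The promoter of Nkx2-1 is shown here beside 3 of genes higher in dB, Emx1, Msx2 and Wnt8b, because these genes mark the 2 poles of the comparison. Each sequence is 300 bases from RefSeq on GRCm38.p6, from 250 before to 50 after the start of the gene, read in the direction of the gene. Nkx2-1 is chr12:56536859-56537158 (minus strand), Emx1 is chr6:85187681-85187980 (plus), Msx2 is chr13:53472731-53473030 (minus) and Wnt8b is chr19:44493222-44493521 (plus). Capitals mark TAATTA, the core that many homeodomain proteins bind, which begins at base 64 in Msx2 and base 215 in Wnt8b.
Nkx2-1: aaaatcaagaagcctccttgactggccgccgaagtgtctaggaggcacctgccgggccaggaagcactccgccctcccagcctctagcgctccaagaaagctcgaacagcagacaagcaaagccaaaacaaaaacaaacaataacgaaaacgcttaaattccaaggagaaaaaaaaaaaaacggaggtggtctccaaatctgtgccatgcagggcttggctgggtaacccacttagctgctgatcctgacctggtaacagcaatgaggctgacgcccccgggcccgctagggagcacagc
Emx1: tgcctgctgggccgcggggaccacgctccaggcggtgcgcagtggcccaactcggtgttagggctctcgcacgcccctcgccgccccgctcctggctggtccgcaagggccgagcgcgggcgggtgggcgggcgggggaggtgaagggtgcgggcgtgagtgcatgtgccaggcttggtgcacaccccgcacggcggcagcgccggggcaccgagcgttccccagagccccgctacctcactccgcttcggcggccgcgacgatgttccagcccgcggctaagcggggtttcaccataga
Msx2: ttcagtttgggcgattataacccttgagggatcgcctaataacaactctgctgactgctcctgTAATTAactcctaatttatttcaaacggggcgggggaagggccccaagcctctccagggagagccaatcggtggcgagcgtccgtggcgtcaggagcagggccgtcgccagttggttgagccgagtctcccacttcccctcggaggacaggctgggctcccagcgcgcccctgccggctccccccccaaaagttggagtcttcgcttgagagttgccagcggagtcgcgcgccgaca
Wnt8b: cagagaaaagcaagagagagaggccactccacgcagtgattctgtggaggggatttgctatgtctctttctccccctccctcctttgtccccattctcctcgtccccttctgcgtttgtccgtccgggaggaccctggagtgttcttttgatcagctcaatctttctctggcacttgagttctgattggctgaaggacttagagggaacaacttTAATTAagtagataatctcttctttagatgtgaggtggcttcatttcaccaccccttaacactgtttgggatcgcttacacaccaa

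A promoter was at hand for 45 of the 67 genes higher in dB and 13 of the 20 higher in vB, beside 27025 symbols in all. On either strand, TAATTA stood in 5 of the 45 (11.1%; Hapln1, Msx2, Rgs13, Tnfrsf19 and Wnt8b) and in 1 of the 13 (7.69%; Asb4), beside 5.31% of all promoters. The E-box CAGCTG stood in 9 (20.0%) and in 2 (15.4%), beside 16.1%. The Tcf/Lef motif CTTTGAT stood in 1 (2.22%) and 0, beside 3.72%, and the Gli motif GACCACCCA in 0 and 0, beside 0.244%. None of the 4 motifs holds another, and a match is a string of letters, not a bound site.

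The calls among subpallial factors depended on how the libraries entered the fit. Of 18 tested, 4 were called higher in vB without the block (Nkx2-1, Lhx8, Isl1 and Olig1) and 12 with it. Without the block, 12 were also called when vB 4 was left out and 12 in a fit over all 35 libraries, and 3 with the mesenchyme covariate; 0 were called higher in dB in any of these fits. The median log2 fold change was −1.66, beside 0.05 over all genes. Isl1, a LIM homeodomain factor of striatal and other ventral neurons, had 1.19, 2.46 and 5.66 FPKM in dB and 8.25, 23.0 and 32.1 FPKM in vB, with no overlap (−2.39, SE 0.38, adjusted p = 0.00786). Olig1, a basic helix-loop-helix factor of ventral progenitors, had 1.81 to 3.26 FPKM in dB and 4.02 to 8.88 FPKM in vB (−1.13, SE 0.17, adjusted p = 0.00628). Lhx8, which marks cholinergic precursors, had 0 to 2.14 FPKM in dB and 0.488 to 26.7 FPKM in vB, where only vB 4 overlapped dB (−3.05, adjusted p = 0.0467). Of the 12 fits Lhx8 was called only without vB 4 or without vB 5, with adjusted p from 0.000383 to 0.137, and with the mesenchyme covariate it was not called (−2.51, adjusted p = 0.183).

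The Dlx factors, which drive the GABAergic programme, were not called over the 12 unpaired libraries, but were called with the block and also without vB 4. Dlx2 had 0.995, 9.40 and 19.4 FPKM in dB and 3.72, 50.7 and 90.9 FPKM in vB. The groups overlapped, since vB 4 had 3.72 FPKM, yet vB was higher within each of the 6 pairs. Its log2 fold change of −1.99 had an adjusted p of 0.339 without the block and 0.00415 with it, and without vB 4 it was −2.58 (adjusted p = 0.0256, the lowest of the 12 fits, which reached 0.674). Dlx1 (−2.01), Dlx5 (−1.95), Dlx6 (−1.77) and Olig2 (−1.76) were likewise called with the block and not without it, Dlx5 at an adjusted p of 0.0021 against 0.163. Without the block, each of the 5 was called in the fit without vB 4, which of the 12 fits was the only one to call it (adjusted p = 0.018 for Dlx1, 0.0101 for Dlx5, 0.00633 for Dlx6 and 0.000103 for Olig2), and in the fit over all 35 libraries. Over the other 11 fits adjusted p reached 0.568 for Dlx1, 0.368 for Dlx5, 0.408 for Dlx6 and 0.218 for Olig2. Gsx2, an upstream factor of the lateral ganglionic eminence, was called with the block (−1.03, adjusted p = 0.019 against 0.482), and in none of the 12 fits nor over all 35 libraries.

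**Figure D3:**
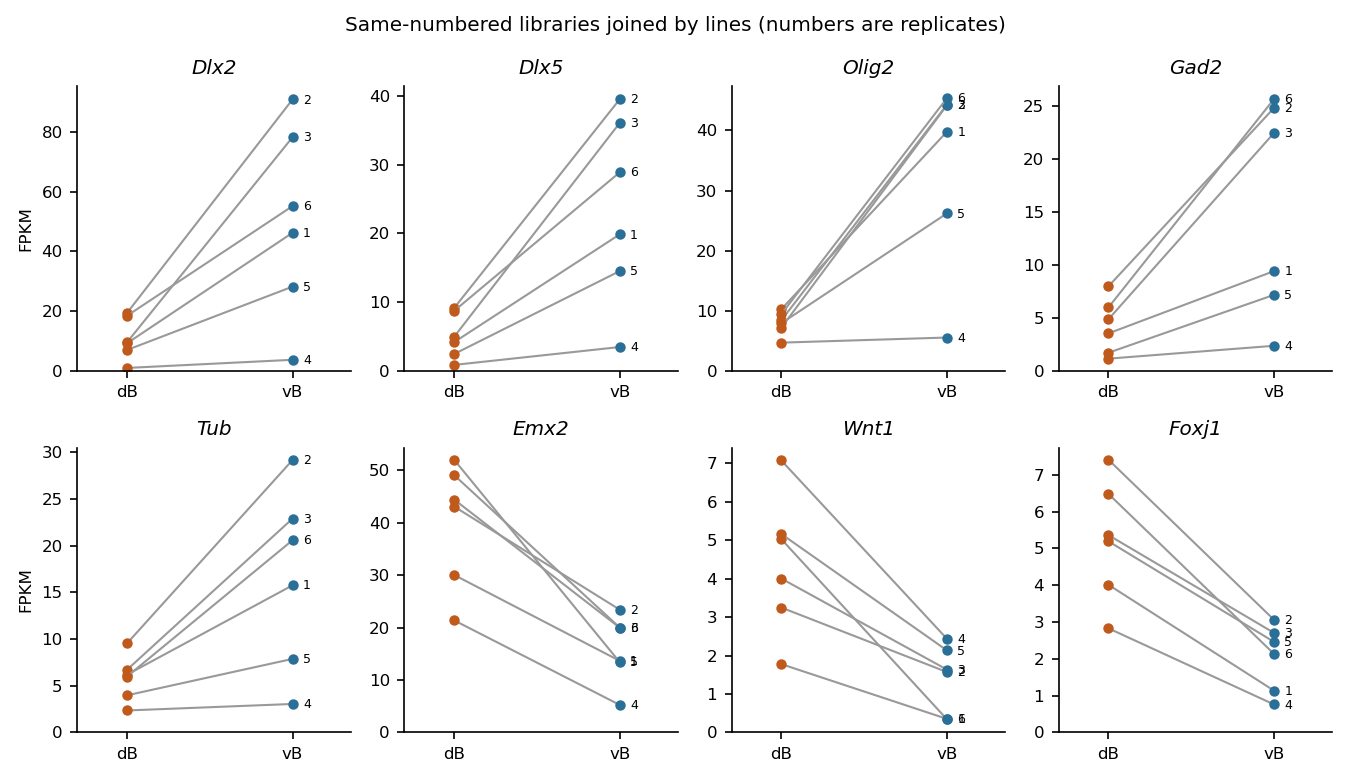
Values of dB and vB libraries with the same replicate number. Each panel is one gene, the y axis is FPKM, dB is left and vB right, and a line joins each of the 6 pairs; for Dlx2, Dlx5, Olig2, Gad2 and Tub the vB end is higher in all 6 pairs, and for Emx2, Wnt1 and Foxj1 the dB end is higher in all 6.

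The ligand Shh and its surface receptors moved in opposite directions. Shh had 1.90, 4.65 and 10.2 FPKM in dB and 16.1, 26.3 and 35.6 FPKM in vB, with no overlap (log2 fold change −2.08, SE 0.31, adjusted p = 0.00592). The co-receptors Boc, Cdon and Gas1, which bind Shh and promote its signalling, were all higher in dB. Gas1 had 49.7, 104 and 142 FPKM in dB and 8.56, 15.2 and 48.6 FPKM in vB (2.43, SE 0.38, adjusted p = 0.00786). Cdon had 10.1, 20.2 and 31.5 FPKM in dB and 2.06, 4.44 and 8.51 FPKM in vB (1.95, SE 0.31, adjusted p = 0.00786). Boc had 18.6, 21.7 and 24.2 FPKM in dB and 5.00, 5.91 and 11.9 FPKM in vB (1.56, SE 0.17, adjusted p = 0.001). None of the 3 overlapped between the groups, though vB 5, the library with the most mesenchyme marker signal, was the highest vB library for each, and its 48.6 FPKM of Gas1 came close to the lowest dB library. With the mean of the mesenchyme markers as a covariate the log2 fold changes of Gas1, Cdon and Boc were 2.05, 1.74 and 1.44, all still called.

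The rest of the Hedgehog pathway was not called at 2-fold without the block. Of its 14 genes tested, 3 were called higher in dB and 1 higher in vB, with a median of 0.29, and 9 had an unadjusted p under 0.05. Ptch1, the receptor that Hedgehog signalling itself induces, had 15.6, 21.5 and 31.2 FPKM in dB and 20.9, 50.2 and 73.3 FPKM in vB; vB was higher in all 6 pairs, and the change of −1.04 was called with the block (adjusted p = 0.0146) and not without it (0.143). Without vB 4 it was called unblocked (−1.26, adjusted p = 0.00781, the lowest of the 12 fits, which reached 0.325). Gli1, a transcriptional target of the pathway, had 6.12 to 10.2 FPKM in dB and 2.61 to 14.6 FPKM in vB (0.01, adjusted p = 0.999). Gli3, which acts mainly as a repressor of the pathway, had a log2 fold change of 0.93 (adjusted p = 0.0512, and 0.00441 with the block, below 2-fold in both). Hhip, an antagonist induced by Hedgehog, did not overlap, at 0.303 to 0.644 FPKM in dB and 0.777 to 1.58 FPKM in vB, but stayed under 2-fold on this scale (−0.52, adjusted p = 0.0508).

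**Figure D4:**
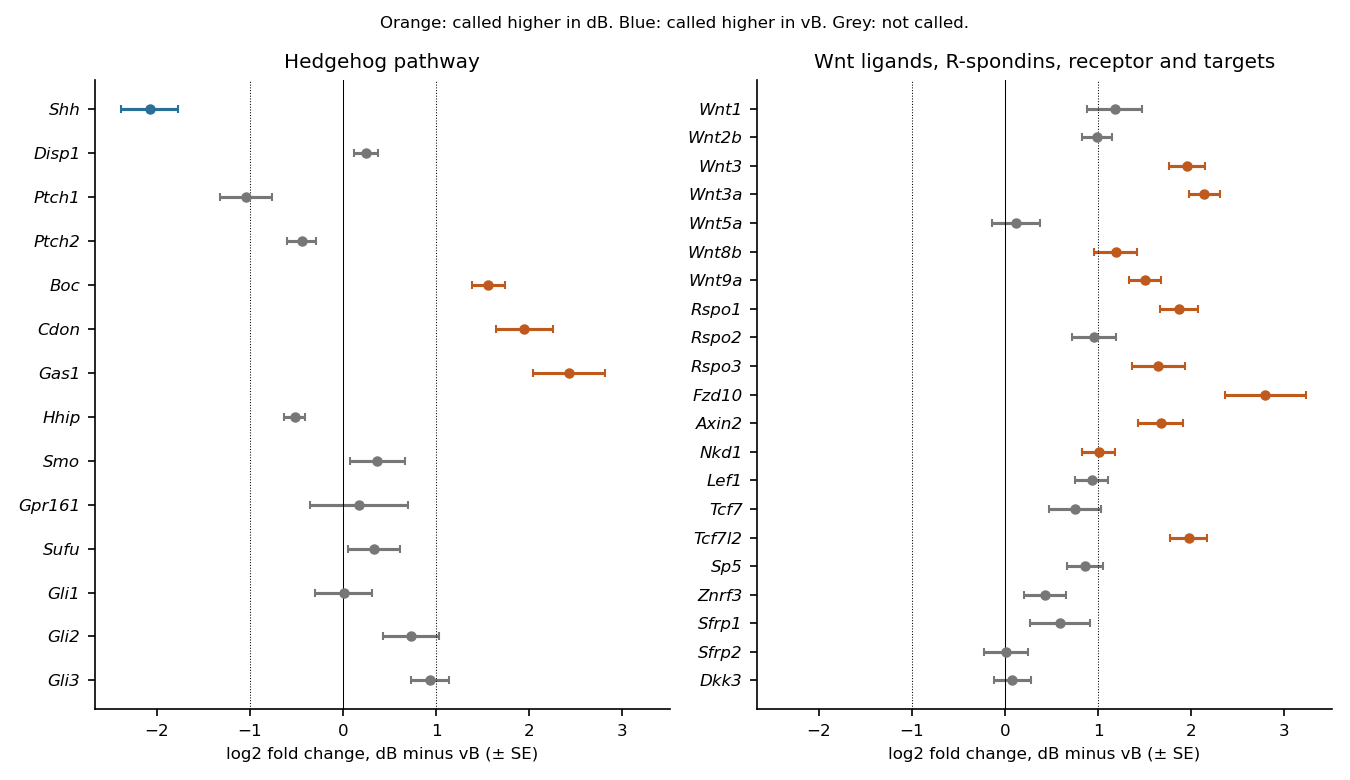
Changes of Hedgehog and Wnt genes. The x axis is the log2 fold change (dB minus vB) with bars of 1 SE, for 14 Hedgehog genes and 21 Wnt genes down the page, orange where called higher in dB, blue where called higher in vB and grey where not called; Gas1 (2.43), Cdon (1.95) and Boc (1.56) lie opposite Shh (−2.08), and no Wnt gene is called higher in vB.

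Floor plate and basal midbrain factors followed Shh only in part. Of 14 tested, Shh and Sim2 were called higher in vB and 0 higher in dB, in both fits, with a median of −0.52. Sim2, a bHLH-PAS factor, had 0.492 to 1.97 FPKM in dB and 1.52 to 4.77 FPKM in vB (−1.08), and lost its call in 9 of the 12 fits that left out 1 library (it was called without dB 1, vB 1 or vB 4, adjusted p from 0.00366 to 0.0958), and was not called with the mesenchyme covariate (−0.92, adjusted p = 0.126). Foxa2, a defining factor of the floor plate, had 0.299 to 5.82 FPKM in dB and 0.875 to 10.2 FPKM in vB, and each tissue was higher in 3 of the 6 pairs (−0.52, adjusted p = 0.874). Nkx2-2 (−0.90) and Nkx6-1 (0.26) were not called. The sets of replicates differed here. In replicates 1 to 3 alone the list median was 0.19, with Foxa2 at 0.82, Nkx6-1 at 1.18 and Nkx2-2 at −0.72. In replicates 4 to 6 alone these values were −1.07, −1.86, −0.66 and −1.09, in that order. The cause was not tested.

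Several Wnt ligands of the dorsal midline were higher in dB. Wnt3a, a ligand of the cortical hem, had 4.59, 5.29 and 8.27 FPKM in dB and 0.0614, 0.478 and 1.04 FPKM in vB, with the groups far apart (log2 fold change 2.14, SE 0.16, adjusted p = 0.000104, the smallest of all genes tested). Wnt3 had 4.73, 6.39 and 7.62 FPKM in dB and 0.429, 0.781 and 1.90 FPKM in vB (1.96, SE 0.19, adjusted p = 0.00053). Wnt9a, next to Wnt3a on chromosome 11, had 4.71 to 7.48 FPKM in dB and 0.689 to 2.55 FPKM in vB and was called (adjusted p = 0.00111). Wnt8b, another ligand of the hem, had 15.3, 19.3 and 28.2 FPKM in dB and 4.06, 8.15 and 12.5 FPKM in vB (1.19, adjusted p = 0.0282), and lost its call in 6 of the 12 fits (without each dB library but dB 4, and without vB 6, adjusted p from 0.0261 to 0.0805). Wnt1, a ligand of the midbrain roof, was higher in dB in all 6 pairs (1.18) and was called with the block (adjusted p = 0.0187) and not without it (0.11). Of the 12 unblocked fits it was called in the one without vB 4 (1.30, adjusted p = 0.0444, with up to 0.274 in the others), and it was called over all 35 libraries. Rspo1 and Rspo3 are secreted amplifiers of Wnt signalling. Rspo1 had 19.5, 24.8 and 36.4 FPKM in dB and 3.52, 6.01 and 9.78 FPKM in vB (1.87, SE 0.20, adjusted p = 0.000999), and Rspo3 had 20.0 to 33.7 FPKM in dB and 3.48 to 17.6 FPKM in vB (1.65).

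Among feedback targets and modulators of the Wnt pathway a few genes were called. Of 12 tested, 3 were called higher in dB (Axin2, Nkd1 and Fzd10) and 0 higher in vB in both fits, and all 12 had a positive log2 fold change, with a median of 0.67 (7 had an unadjusted p under 0.05). Fzd10, a Wnt receptor of the dorsal neural tube, had 23.1, 43.4 and 49.3 FPKM in dB and 1.78, 3.56 and 21.0 FPKM in vB, where vB 5 was highest (2.80, SE 0.43, adjusted p = 0.00727). Axin2, a negative regulator that Wnt signalling induces, had 15.7, 26.4 and 32.7 FPKM in dB and 3.79, 7.22 and 14.1 FPKM in vB (1.67, SE 0.24, adjusted p = 0.0055). Nkd1 lay at the 2-fold threshold (1.00, adjusted p = 0.0183), and lost its call in 7 of the 12 fits (it was called without dB 4, dB 6, vB 1, vB 4 or vB 5, adjusted p from 0.00224 to 0.0627), and with the mesenchyme covariate it lay under 2-fold (0.75). Apcdd1 (1.41), an inhibitor of Wnt signalling, and Tnfrsf19 (1.43), known as a Wnt target, were also called.

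Genes of the roof plate, hem and choroid plexus gave the largest share of calls among the 33 lists without the block. Of 23 tested, 11 were called higher in dB and 0 higher in vB (14 and 0 with the block), with a median of 1.19. Over all genes tested, 0.51% were called higher in dB without the block and 0.731% with it. With the block the subpallial list, at 12 of 18, had the larger share. The lists were chosen with earlier results of these data known, so their ranking is only descriptive. The mean of the list was 3.19 to 3.63 in dB libraries and 1.86 to 2.56 in vB libraries, without overlap. The Msx factors are induced by Bmp in the roof plate. Msx2 had 11.4, 15.4 and 17.5 FPKM in dB and 0.276, 1.02 and 9.32 FPKM in vB, where vB 4 and vB 5 had 8.33 and 9.32 FPKM and the other 4 at most 1.36 FPKM (2.40, SE 0.51, adjusted p = 0.0467). Of the 12 fits Msx2 was called only without vB 4 or without vB 5 (adjusted p from 0.00708 to 0.125), and with the mesenchyme markers as a covariate it was 1.64 (adjusted p = 0.0775). Msx1 overlapped, with 11.2 to 19.5 FPKM in dB and 0.396 to 18.1 FPKM in vB, vB 5 being highest, and was called with the block (2.10, adjusted p = 0.0303) and not without it (0.089). Of the 12 unblocked fits it was called in the one without vB 5 (adjusted p = 0.00156, with up to 0.232 in the others). Both Msx genes are also expressed in mesenchyme outside the brain.

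The ligand Bmp6 had 2.58, 3.76 and 4.51 FPKM in dB and 0.337, 1.01 and 1.61 FPKM in vB (log2 change 1.24, SE 0.16, adjusted p = 0.00259). Gdf7, a roof plate ligand, had 0.485 to 2.42 FPKM in dB and at most 0.31 FPKM in vB (1.02), and lost its call without dB 2, dB 3 or vB 6 (adjusted p from 0.00439 to 0.0494) and with the mesenchyme covariate (0.91, adjusted p = 0.0625). The zinc finger factors Zic2 (1.32), Zic5 (1.20) and Zic4 (1.08) were called, but each lost its call in 6 to 9 of the 12 fits (Zic2 without dB 2, dB 3, dB 5, dB 6, vB 1 or vB 6, and Zic4 and Zic5 also without dB 1, Zic5 without vB 3 and Zic4 without dB 4 or vB 5; adjusted p up to 0.0769 for Zic2, 0.105 for Zic5 and 0.104 for Zic4). With the mesenchyme covariate Zic4 was called and Zic2 (adjusted p = 0.0926) and Zic5 (adjusted p = 0.0867) were not. Ttr, the abundant transport protein of choroid plexus epithelium and a member of the list, was not called in either fit. It had 0.395, 5.58 and 21.3 FPKM in dB and 0.0419, 0.221 and 0.929 FPKM in vB, with dB 4 inside the vB range (2.12, adjusted p = 0.21, and 0.0947 with the block). Aqp1, Clic6 and Trpm3, which choroid plexus also expresses, are outside the list and were picked after their values were seen. The water channel Aqp1 had 1.39 to 4.82 FPKM in dB and 0.035 to 0.86 FPKM in vB (1.56), Clic6 had 2.71 to 5.96 FPKM in dB and 0.145 to 1.15 FPKM in vB (1.62), and the ion channel Trpm3 changed by 1.28. Bmp targets and antagonists gave 0 calls in either direction among 10 tested, also with the block (median 0.35, 1 gene at an unadjusted p under 0.05).

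Pallial factors were higher in dB for 3 of 16 tested (6 with the block) and higher in vB for 0 in either fit, and all 16 had a positive log2 fold change, with a median of 0.78. Emx1, the defining homeobox factor of the dorsal telencephalon, had 19.2, 36.4 and 42.7 FPKM in dB and 1.83, 4.03 and 9.53 FPKM in vB, without overlap (2.69, SE 0.29, adjusted p = 0.000999). The Doublesex-related factor Dmrt3 had 7.28, 12.9 and 16.7 FPKM in dB and 1.24, 2.83 and 3.53 FPKM in vB (1.94, SE 0.23, adjusted p = 0.0013). Its relative Dmrta1 had 4.47 to 9.37 FPKM in dB and 1.87 to 3.28 FPKM in vB (1.31). Emx2, the relative of Emx1, had 21.4 to 52.0 FPKM in dB and 5.25 to 23.4 FPKM in vB; dB was higher in all 6 pairs, and it was called with the block (1.34, adjusted p = 0.00542) and not without it (0.0777), though 2 of the 12 unblocked fits called it, those without dB 4 or vB 4 (adjusted p from 0.0302 to 0.214 over the 12). Lhx2 (1.10) and Lhx9 (1.05), LIM homeodomain factors, were called with the block and over all 35 libraries, and in none of the 12 unblocked fits. Pax6 (0.63) and Neurog2 (0.53) were not called in either fit; Pax6 had 30.1 to 53.7 FPKM in dB and 14.4 to 40.1 FPKM in vB.

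Factors of the alar midbrain and diencephalon were called higher in dB for 2 of 16 tested and higher in vB for 0 (6 and 0 with the block), with a median of 1.21. The list median was 1.85 in replicates 1 to 3 alone and 0.44 in replicates 4 to 6 alone. Tcf7l2, a Wnt effector that marks the thalamus, had 42.1, 62.8 and 88.1 FPKM in dB and 11.7, 13.8 and 23.0 FPKM in vB, without overlap (1.97, SE 0.20, adjusted p = 0.00053). Tfap2b had 6.86 to 18.9 FPKM in dB and 0.855 to 8.91 FPKM in vB, vB 5 being highest (1.84, adjusted p = 0.024). Tfap2b kept its call in 4 of the 12 fits, those without dB 4, vB 1, vB 4 or vB 5 (adjusted p from 0.00169 to 0.0757), and was not called with the mesenchyme covariate (1.44, adjusted p = 0.0769). Pax3 (1.97), a dorsal neural tube factor, and Irx1 (2.01) were called with the block and not without it, at adjusted p = 0.0364 and 0.0414 against 0.0516 and 0.058. Of the 12 unblocked fits both were called without vB 4 and without vB 5 (adjusted p from 0.00343 to 0.145 for Pax3 and from 0.00593 to 0.158 for Irx1), and both were called over all 35 libraries. Of the vB libraries, vB 5 had the highest value of both, 7.41 and 15.0 FPKM. Pax7, a dorsal midbrain factor, had 1.95 to 4.15 FPKM in dB and 0.358 to 5.59 FPKM in vB and was not called (0.99, adjusted p = 0.288). Among anterior-posterior landmarks, Otx1 was called, with 35.4, 40.6 and 51.0 FPKM in dB and 8.07, 14.9 and 21.8 FPKM in vB (1.45, SE 0.18, adjusted p = 0.00247), whereas Otx2 (0.69) and En1 (0.38) were not.

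Outside the lists, Shox2, a homeobox factor of the thalamus, had 10.3 to 31.1 FPKM in dB and 1.24 to 9.74 FPKM in vB (log2 change 2.18, adjusted p = 0.0153, lost of the 12 fits in the one without dB 3, with adjusted p from 0.00749 to 0.0534, and with the mesenchyme covariate, at 0.0609). Gabrp, a subunit of the GABA-A receptor, had 1.66, 4.05 and 7.77 FPKM in dB and was listed at 0 in 3 vB libraries, with 1.16 FPKM in vB 5 as the highest (2.08, adjusted p = 0.00492). Hapln1, a link protein of the extracellular matrix, had 7.71 to 13.9 FPKM in dB and 0.255 to 5.39 FPKM in vB (2.02, adjusted p = 0.0301), and of the 12 fits it was called only without vB 4 or without vB 5 (adjusted p from 0.00571 to 0.0936). The keratin Krt7 had 2.73 to 4.91 FPKM in dB, while in vB it had 1.13 and 1.84 FPKM in replicates 1 and 5 and at most 0.0306 FPKM in the other 4 (1.88, adjusted p = 0.0055). Bhlhe23, a basic helix-loop-helix factor, had 5.27 to 8.82 FPKM in dB and 0.465 to 3.11 FPKM in vB (1.83, adjusted p = 0.00259).

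Genes of neurotransmission that were called, with or without the block, were higher in vB. Of 8 tested, Th alone was called without the block, and Th, Gad1 and Gad2 were called higher in vB with it. In either fit 0 were called higher in dB, and the median was −0.88. The log2 fold change was negative for 7 and positive for 1, Slc17a7. Over all 35 libraries Slc17a7 stayed under 2-fold (0.89, adjusted p = 0.000494). Of the 12 unblocked fits, the one without dB 4 called it higher in dB (adjusted p from 0.0263 to 0.372 over the 12). Th, the rate-limiting enzyme of dopamine synthesis, had 0.948, 2.01 and 2.84 FPKM in dB and 4.89, 9.26 and 14.1 FPKM in vB, without overlap (−1.78, SE 0.24, adjusted p = 0.0035). Gad2, an enzyme that makes GABA, had 1.16 to 7.99 FPKM in dB and 2.37 to 25.7 FPKM in vB and was higher in vB in all 6 pairs (−1.48, adjusted p = 0.00784 with the block and 0.319 without it). Of the 12 unblocked fits Gad2 was called in the one without vB 4 (adjusted p = 0.0422, with up to 0.657 in the others). Of 17 general neuron genes 0 were called in either direction in either fit (median −0.37, 3 at an unadjusted p under 0.05), and likewise 0 of 15 progenitor genes (0.08, 0 at that p) and 0 of 18 cell cycle genes (0.10, 2 at that p).

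Most ciliary genes were not called, as was the case for most genes tested. Of all genes tested, 0.663% were called without the block and 1.14% with it, and 9.4% had an unadjusted p under 0.05. At such shares, 0 calls in lists of this size do not set ciliary genes apart. None of 27 intraflagellar transport genes (median −0.04, 0 at an unadjusted p under 0.05), of 29 BBSome and transition zone genes (−0.07, 2) and of 13 tubulin-modifying enzymes (−0.06, 1) was called in either fit. Of 18 genes of the ciliary membrane and its trafficking 0 were called (0.20, 3), and with the block Tub was called higher in vB. Tub, the tubby protein that carries receptors into cilia, had 2.35, 6.09 and 9.53 FPKM in dB and 3.05, 18.2 and 29.2 FPKM in vB, with vB 4 and vB 5 inside the dB range and vB higher in all 6 pairs (−1.19, adjusted p = 0.37, and 0.0199 with the block). Without vB 4 it was −1.55 (adjusted p = 0.0295, the lowest of the 12 fits, which reached 0.722). Tulp3, its relative, changed by 0.41 and was not called.

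The motile cilium list was the one ciliary list with calls without the block. Of 18 genes of motile axonemes and multiciliation, Gm606 and Ccno were called higher in dB and 0 higher in vB, with a median of 0.31, and Foxj1 joined them with the block. Gm606, which RefSeq names Gmnc and which starts the multiciliated cell programme, had 2.27, 4.18 and 4.80 FPKM in dB and 0.0676, 0.721 and 1.80 FPKM in vB (1.52, SE 0.23, adjusted p = 0.00634). Ccno, a cyclin needed for centriole amplification, had 2.30, 3.26 and 4.81 FPKM in dB and 0.242, 1.11 and 1.56 FPKM in vB (1.20, SE 0.21, adjusted p = 0.0121). Neither overlapped. Foxj1, the master factor of motile cilia, had 2.83 to 7.41 FPKM in dB and 0.759 to 3.06 FPKM in vB and was higher in dB in all 6 pairs (1.05, adjusted p = 0.00219 with the block and 0.0663 without it). Of the 12 unblocked fits Foxj1 was called in the one without dB 4 (adjusted p = 0.0364, with up to 0.173 in the others). The summed level of the listed genes was 80.3 to 90.0 FPKM in dB libraries and 57.1 to 76.4 FPKM in vB libraries, without overlap, and 25.7 to 39.6 FPKM in facial libraries. Rfx4, a transcription factor of ciliated neural cells, changed by 0.51 and was not called.

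Other signalling and guidance lists gave no call in either direction with or without the block. These were Fgf ligands and feedback targets (12 tested, median 0.18, 0 at an unadjusted p under 0.05), axon guidance genes (24, 0.23, 6), retinoic acid genes (8, −0.05, 2) and immediate early genes (8, 0.19, 1). With 0.663% of all genes tested called, 0 calls do not set these lists apart. Over the 33 lists, 429 genes were tested, of which 25 were called higher in dB and 12 higher in vB, beside 0.51% and 0.152% of all genes tested.

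**Figure D5:**
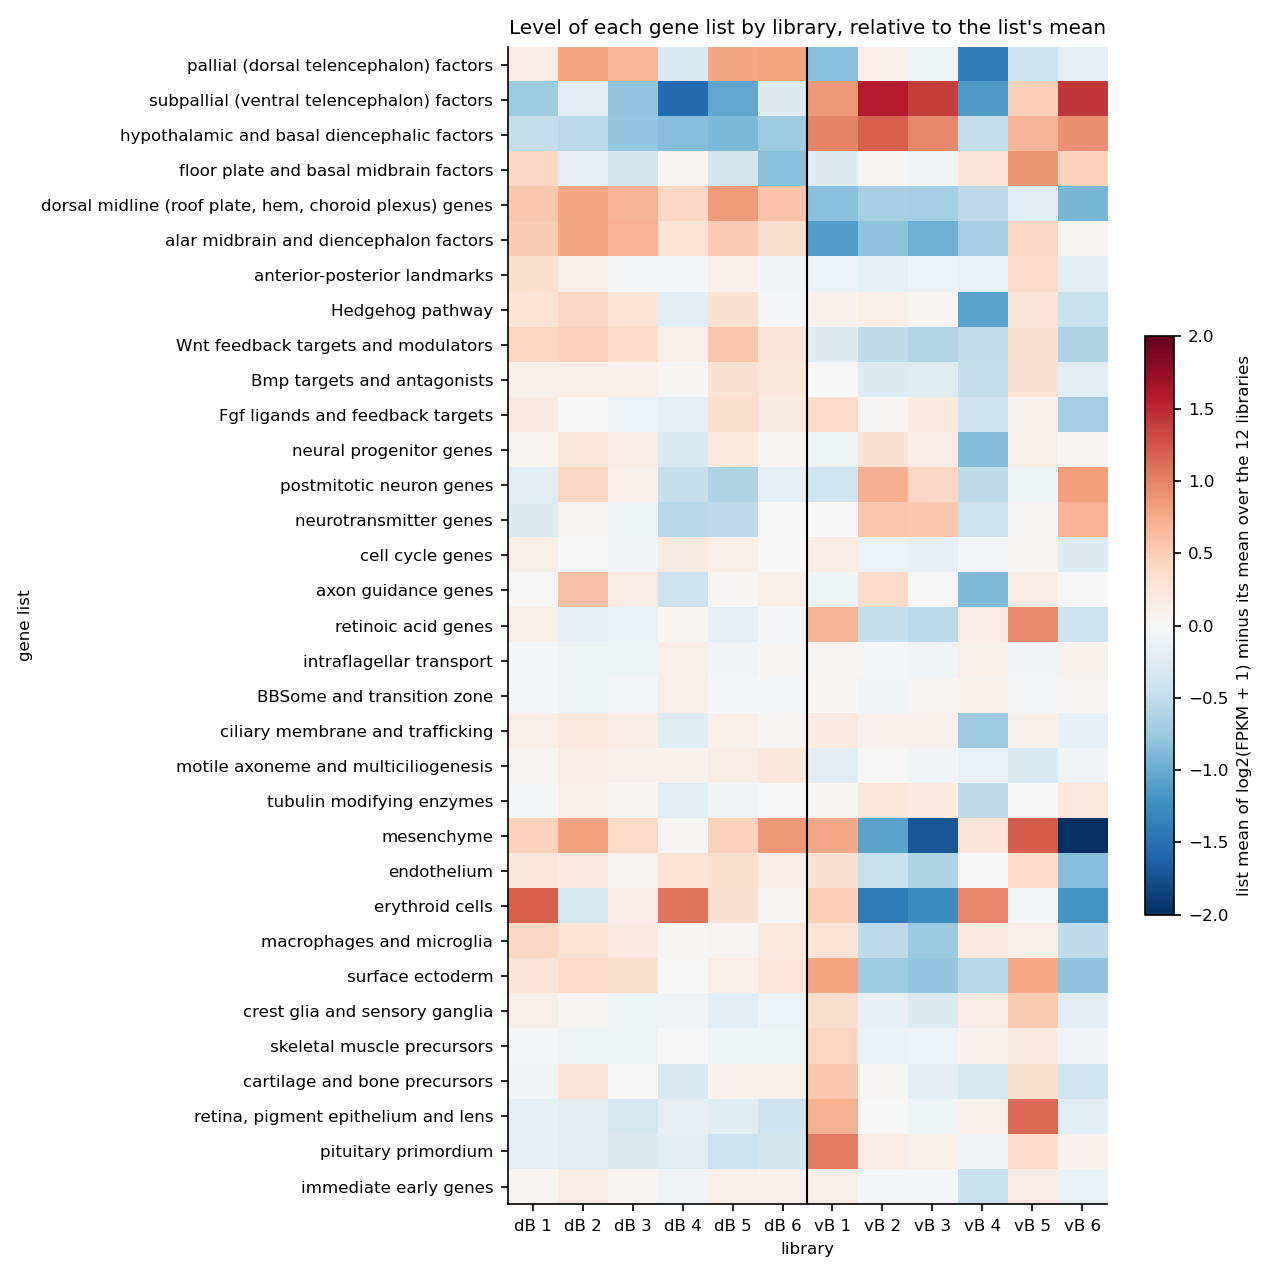
Gene lists in each of the 12 libraries. The rows are the 33 lists and the columns the libraries, dB left and vB right, with colour for the mean log2(FPKM + 1) of the list relative to its mean over the 12 libraries; the dorsal midline list is higher in every dB library (3.19 to 3.63) than in any vB library (1.86 to 2.56), while mesenchyme varies within vB from 0.58 to 4.22.

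Markers of other tissue moved with the comparison and with single libraries. Of 19 mesenchyme markers 0 were called in either direction, with or without the block, but 18 had a positive log2 fold change (median 0.97, 7 at an unadjusted p under 0.05). Their summed level was 264.6 to 501.1 FPKM in dB and 10.76 to 502.6 FPKM in vB, and none was at 0 in all libraries. Twist1 had 13.1 to 33.2 FPKM in dB and 60.3 FPKM in vB 5, against 0.397 FPKM in vB 6. With the mean of these markers as a covariate, 47 genes were called higher in dB and 17 higher in vB, among them 46 of the 67 and 11 of the 20; Emx1 (2.87), Wnt3a (2.14), Shh (−2.03) and Nkx2-1 (−3.90) were still called. The genes described above that were not called with it were Otp, Lhx8, Sim2, Dlk1, Irs4, Neurog3, Mbip, Msx2, Gdf7, Zic2, Zic5, Nkd1, Tfap2b, Shox2, Adra2a and Rgs13. Rgs13 had a log2 fold change of 1.05 with the covariate (adjusted p = 0.117). Of the 12 fits that each left out 1 library it was called only without vB 4 or without vB 5 (adjusted p from 0.00534 to 0.121). The endothelium list had a median of 0.42 over 12 genes, the macrophage list 0.46 over 10 and the surface ectoderm list 0.46 over 9, with 0 called in each in both fits and 6, 5 and 2 at an unadjusted p under 0.05. The erythroid list had a median of 0.79 over 9, with 0 called (2 at an unadjusted p under 0.05) and Slc4a1 higher in dB with the block. Rax, of the retina and lens list, is also in the hypothalamic list, and the mean of the retina and lens list was at most 0.609 in dB libraries, while in vB it was 1.92 in replicate 5 and highest after that in replicate 1. The part of the endothelial, macrophage, ectodermal, erythroid, retinal and lens markers in the results was not tested. The lists of crest glia (4 tested, 2 at an unadjusted p under 0.05), muscle (1 tested, 0) and cartilage (6 tested, 0) gave no call in either fit.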

How the data were processed

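RNA sequencing of 12 libraries, 6 dB and 6 vB, was used out of 35. Per transcript, the authors deposited a Cufflinks FPKM estimate (mm10), its status and its coverage. Coverage was used only as a measure of depth. The tables used hold no counts, so intervals for single values are not given. Bowtie2, DESeq2 and mm10 appear in the submitters' processing notes. Which aligner fed Cufflinks, and in which version, is not given in the sources used here. From 59120 transcripts, 65 with shifted columns were left out, and FPKM was summed over 30723 symbols. Of the genes, 9 had a failed estimate in some library, none of them called.

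The fit was made with limma 3.58.1 under R 4.3.3, on log2(FPKM + 1) with trend and robust variance, over genes whose mean reached 1 FPKM in dB or in vB. Adjustment was Benjamini-Hochberg over all 13131 genes. A fold change on this scale understates changes of low genes. On simulated data, 91 of 100 genes changed by 1.5 and 98 of 100 changed by 2.5 (log2) were called, with 2 of 12931 unchanged genes. The simulated noise was independent between genes and libraries, with the same SD in both tissues, and only genes with a mean above 2.5 were changed. The real libraries spread more in vB and deviated together, so these shares do not measure recovery in the real data. Replicate numbers were taken to pair libraries, because the deviations of same-numbered dB and vB libraries correlated at 0.349, 0.657, 0.417, 0.701, 0.371 and 0.262. The labels do not say what a number shares. The sequencing runs in the deposited tables differ between replicates 1, 2 and 3, while replicates 4 to 6 came from 1 run except vB 4.

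The members and gene lists were chosen with earlier results of these data known. Genes were named by rule: the 8 called genes of largest change in each direction, up to 4 called members of each list (all where 5 or fewer were called) and fixed landmarks. Other genes were named after their values were seen, namely Dlx1, Dlx5, Dlx6, Lhx2, Gli3, Irx1, Aqp1, Clic6, Trpm3, Gad1, Slc17a7, Apcdd1, Tnfrsf19, Neurog3, Asb4, Irs4, Mbip, Twist1, Ttr, Slc4a1, Bhlhe23, Sim1, Nkx2-9, Gdf7, Bmp6, Wnt8b, Rspo3, Zic2, Zic4, Zic5, Hoxb2, Hhip, Dlk1, Krt7, Wnt9a, Rgs13, Rbm20, Adra2a, 2610035F20Rik, Snora21 and AF357374, and the genes of the closing section other than Nkx2-1, Wnt3a, Gabrp, Zic1, Pax7, Olig2 and Nkx2-2. Some genes that meet the rule are not reported here. Promoters are from RefSeq (GRCm38.p6), the first listed per symbol. Alternatives covered the pseudocount, the low filter, normalization, blocks, covariates, weights and left out libraries.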

Additional observations from a re-analysis of the deposited data

Results flagged for a closer look

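In a group of 6 libraries, a value was singled out where the gap between the highest or lowest library and its nearest neighbour exceeded the 95% critical share of the group's whole range in Dixon's test, on the log2(FPKM + 1) scale. Chance singles out about 1 in 20 groups. Over the 234 groups looked at (genes in dB or in vB), 16 values were that far out, close to that share, and 8 of them were low values of vB 4. They were Nkx2-1 (gap 0.634 of the range, 6.93 FPKM against 39.4 to 102 in the other vB libraries), Zic1 (0.645), Olig2 (0.727, 5.55 FPKM against 26.2 to 45.4), Nkx2-2 (0.681), Vax1 (0.644), Lhx2 (0.692), Six3 (0.706) and Ntn1 (0.699), a guidance cue of the floor plate.

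In vB 5, Gabrp (0.673, 1.16 FPKM against 0 to 0.286), Pax7 (0.734, 5.59 FPKM against 0.358 to 1.07) and Wnt2b (0.649) were high, and in vB 1 Rspo2 (0.751, 3.81 FPKM against 10.6 to 14.6) was low. Among dB libraries, Wnt3a was high in dB 5 (0.724, 8.27 FPKM against 4.59 to 5.43), Slc4a1 was high in dB 1 (0.648, 65.9 FPKM against 34.4 to 43.3), Barhl2 was low in dB 4 (0.724, 8.93 FPKM against 15.0 to 18.1), and Hmx2 was above 0 in dB 2 alone (1, at 0.0436 FPKM).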

How the results depend on the processing

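Leaving out each library in turn gave 41 to 116 genes higher in dB (67 with all 12), 11 to 70 higher in vB (20) and 25 to 64 called list members (37). The replicate block, which pairs libraries of 1 number, gave 54 genes higher in vB and 64 list members, and the sequencing run as a block 59 and 56. Genes higher in dB numbered 39 at a mean of at least 5 FPKM, 0 in replicates 4 to 6 alone, 137 with all 35 libraries, 303 with array weights, 455 without vB 1, 4 and 5 and 218 without vB 4 and 5, a choice made after seeing the data. Genes higher in vB numbered 13, 2, 62, 118, 269 and 112 in these 6 fits, 31 with quantile normalization and 43 in replicates 1 to 3 alone, and list members 0, 78, 111, 132 and 96 in the last 5 of the 6. Of 52 called genes checked by name, 52 kept their call with all 35 libraries, array weights or without vB 4, 37 with the mesenchyme covariate and 0 in replicates 4 to 6 alone, and no called gene reversed its direction in any fit. The cause of these shifts was not tested. With no counts at hand, depth limits the low genes in ways that cannot be measured here.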
